A study of Mus musculus with 6 samples.

Results

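The genes described here encode the activation cascade of rod phototransduction, the chain of proteins that turns light absorption in a rod photoreceptor into an electrical signal, together with arrestin and phosducin. They were Sag, Gnat1, Gnb1, Gngt1, Pde6a, Pde6b, Pde6g, Cnga1 and Pdc, chosen by symbol, and every probe set that the platform annotation maps to one of these symbols alone was taken. All 9 genes were on the array, with 15 of the 22626 probe sets that were not controls. Total RNA extracted from whole retinae of mice aged 7 days after birth (P7) had been hybridised to Affymetrix arrays, 1 per sample. The 3 knockout arrays came from C57BL/6 mice hemizygous for the knockout allele of the study's targeted gene (-/Y), and the 3 wildtype arrays from C57BL/6 wildtype mice of the same age. The sex of the wildtype mice is not stated in the labels used here. Since whole retinae were used, every value is an average over rods and all other retinal cells, and fewer rods and less RNA per rod cannot be told apart. The design text gives 3 mice per genotype, and nothing in the labels says whether they were littermates or were processed together, so p-values measure only the spread between these samples.

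In the rod outer segment, a visual pigment that has absorbed light activates the G protein transducin, whose alpha subunit is Gnat1 and whose beta and gamma subunits are Gnb1 and Gngt1. Activated Gnat1 relieves the inhibition that the gamma subunit Pde6g exerts on the catalytic subunits Pde6a and Pde6b of the rod phosphodiesterase, cyclic GMP is hydrolysed, and the cyclic nucleotide-gated channel containing Cnga1 closes. Arrestin, encoded by Sag, binds the phosphorylated pigment and ends its activity, and phosducin, encoded by Pdc, binds the transducin beta-gamma pair. In the mouse retina rod birth peaks around birth and outer segments grow mostly after the first postnatal week, so the cascade is still being assembled at this age. Gnb1 is also used by G proteins of many other cells, whereas the other members are characteristic of photoreceptors, with Sag and Pdc known from cones and the pineal gland as well.

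Promoter sequences of 4 members are shown because these genes had different patterns between the arrays: Sag was lower in every knockout array, Gngt1 varied widely among the knockout arrays, Pde6b showed nearly equal means, and Gnb1 is the widely expressed member. Each runs 5′ to 3′ from 250 bases before to 50 bases after a transcript start in RefSeq (GRCm38.p6). Member entries on 1 chromosome were left out by choice, and 6 of the 9 genes had an entry among those kept. The Sag window is chr1:87803430-87803729 (plus strand), that of Gngt1 chr6:3993758-3994057 (plus strand), that of Pde6b chr5:108388123-108388422 (plus strand) and that of Gnb1 chr4:155491111-155491410 (plus strand). Capitals mark matches, on either strand, to TAATCC, the core bound by the photoreceptor homeodomain factor Crx, or to TGCTGA, the core of a site bound by the rod leucine zipper factor Nrl. No matches overlapped each other.
Sag: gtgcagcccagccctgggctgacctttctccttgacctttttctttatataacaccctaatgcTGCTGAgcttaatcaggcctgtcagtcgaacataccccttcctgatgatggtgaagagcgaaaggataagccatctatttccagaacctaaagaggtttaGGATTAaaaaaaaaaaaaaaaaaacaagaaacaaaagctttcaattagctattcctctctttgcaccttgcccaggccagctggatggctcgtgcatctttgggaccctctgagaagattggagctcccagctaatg
Gngt1: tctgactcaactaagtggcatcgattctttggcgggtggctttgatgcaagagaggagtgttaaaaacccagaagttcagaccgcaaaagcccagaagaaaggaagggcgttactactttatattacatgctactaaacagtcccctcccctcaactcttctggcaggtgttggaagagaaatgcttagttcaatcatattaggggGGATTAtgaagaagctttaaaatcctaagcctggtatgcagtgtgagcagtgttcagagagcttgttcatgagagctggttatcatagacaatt
Pde6b: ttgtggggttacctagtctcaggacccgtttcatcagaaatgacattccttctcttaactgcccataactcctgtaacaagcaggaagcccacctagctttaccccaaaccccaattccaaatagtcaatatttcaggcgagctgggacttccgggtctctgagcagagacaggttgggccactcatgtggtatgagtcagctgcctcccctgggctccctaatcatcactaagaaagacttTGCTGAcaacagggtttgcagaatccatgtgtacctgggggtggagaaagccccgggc
Gnb1: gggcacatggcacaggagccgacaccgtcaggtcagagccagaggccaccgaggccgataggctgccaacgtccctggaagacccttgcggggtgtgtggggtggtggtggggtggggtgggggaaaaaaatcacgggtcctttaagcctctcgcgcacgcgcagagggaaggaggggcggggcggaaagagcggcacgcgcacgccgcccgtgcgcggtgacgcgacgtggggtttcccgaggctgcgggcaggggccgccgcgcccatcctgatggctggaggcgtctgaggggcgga
Sag held 1 match to each motif, Gngt1 held 1 to TAATCC, Pde6b held 1 to TGCTGA, and Gnb1 held neither. Of the other members with an entry kept, Cnga1 had 1 match to TAATCC and Pdc had none to either. TAATCC occurred in 7.06% of the 32851 promoter entries of this length and TGCTGA in 19.5%. The GC content was 44.7% for Sag, 43.7% for Gngt1, 51.3% for Pde6b and 70.3% for Gnb1. These are matches of letters within a short window and were not related to binding.

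Rod identity of the tissue was checked with markers outside the member list. The rod determinant Nrl had scaled signals of 5282, 6038 and 6140.3 in the knockout arrays and 6619, 6873 and 5931 in the wildtype arrays. Of 7 rod markers on the array, 6 lay above the filter on dim probe sets, and only the pigment kinase Grk1 lay below it, at 5.42 to 12.1 in knockout and 9.64 to 39.9 in wildtype arrays. Of the 6 tested rod markers, 0 passed, and their median log2 fold change was -0.10. The 4 estimates below 0 were those of Nrl (-0.15), Rom1 (-0.34), Prph2 (-0.41) and Cngb1 (-0.04). The 2 above 0 were those of Rcvrn (0.26) and Guca1b (0.78), both of calcium signalling in photoreceptors. Guca1b had a scaled signal of 18.1 in wildtype array 1, against 134 and 103 in wildtype arrays 2 and 3. Signal here is the deposited MAS5 intensity after each array was scaled to a common trimmed mean, and it orders arrays for a probe set but not probe sets among themselves. A probe set was tested when its mean scaled signal exceeded 61.3, which 13647 did, among them 13 of the 15 member probe sets and at least 1 for each of the 9 genes. The trimmed mean before scaling was 304, 277 and 263 in knockout and 215, 171 and 312 in wildtype arrays. Knockout array 1 stood apart, correlating with the others at 0.914 to 0.936 across tested probe sets, against 0.958 to 0.979 among the other 5 arrays, and each tested member's estimate without it is given below. Lens markers varied within both groups, with summed scaled signals of 563 to 1374 in knockout and 381 to 2211 in wildtype arrays (11 of 13 markers on the array). All 8 tested lens markers had log2 fold changes above 0 (median 0.38), and 0 passed. Pigment epithelium markers summed to 2085 to 3261 in knockout and 1119 to 2910.2 in wildtype arrays (6 of 7 on the array), and blood markers to 33.2 to 45.3 in knockout and 39.2 to 49.7 in wildtype (2 of 5 on the array). Muscle markers, all 7 on the array, summed to 316 to 373 in knockout and 452 to 519 in wildtype arrays without overlap, and 0 of the 4 tested passed. The part of these other tissues in the values below was not tested.

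No gene of the cascade passed the test for a difference between knockout and wildtype retinae. Of the 13 tested member probe sets, 0 reached a limma p under 0.05 after Benjamini-Hochberg adjustment over all probe sets, and 1, of Gngt1, did so before adjustment. Over all 13647 tested probe sets, 2 passed the adjusted threshold (0.0147%) and 521 the unadjusted one (3.82%). The adjusted p in limma was 0.999 for each tested member probe set, so the values below are estimates that did not pass. The estimated log2 fold change, knockout minus wildtype on the log2(signal + 19.1) scale, was below 0 for 12 of the 13, against 50.0% of all tested probe sets. Their median was -0.19 (range -0.65 to 0.02), while the median over all tested probe sets was 0.00011 with an interquartile range from -0.14 to 0.12. Probe sets of 1 gene share their transcript and all members share the same arrays, so the 13 are not independent of each other. The number below 0 depended on the scaling, being 9 with median scaling and 4 with no rescaling, where the median over all tested probe sets moved to 0.088 and 0.29. Relative to that median, 12 and 11 of the 13 lay below it in those settings, and the members' median minus it was -0.19 and -0.17 log2 units, against -0.19 in the scaling used here.

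**Figure D1:**
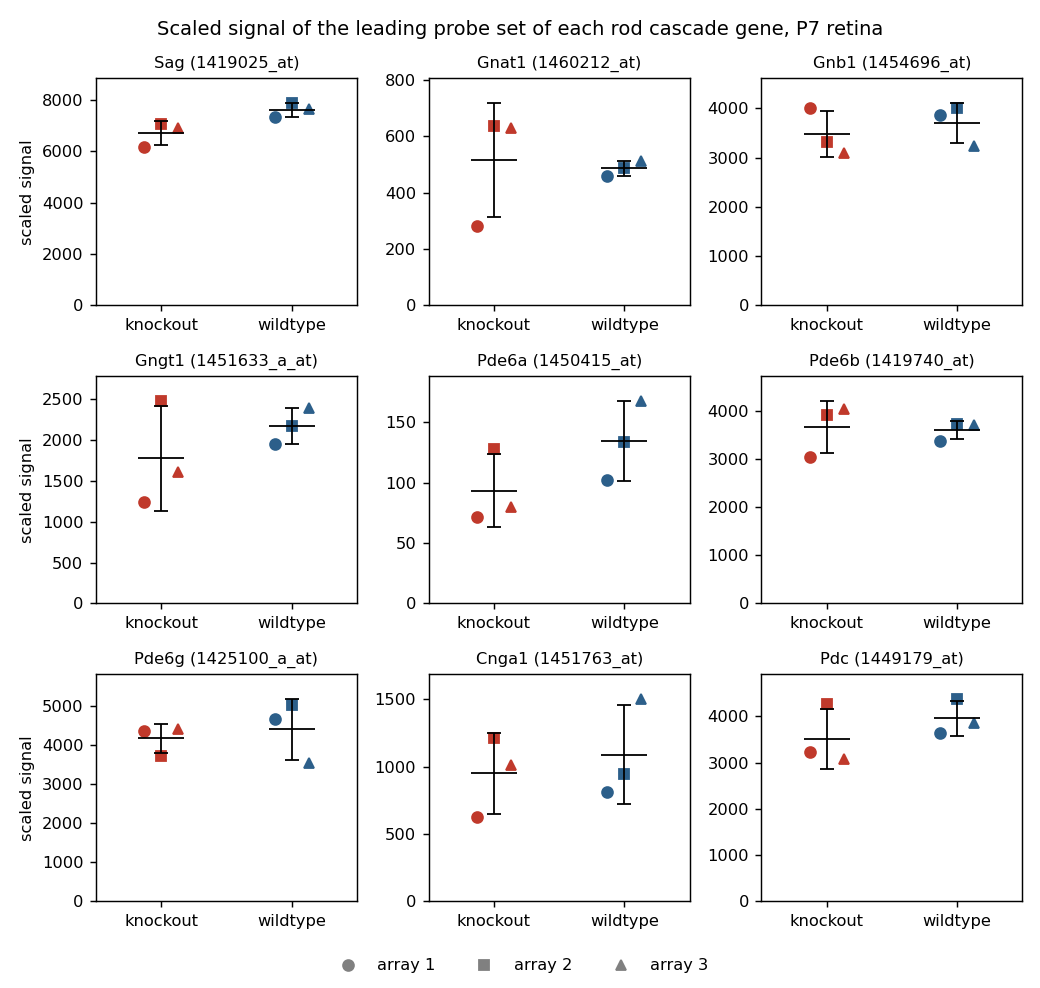
Scaled signal (linear axis from 0, arbitrary units) of the leading, brightest probe set of each of the 9 genes, with the 3 knockout arrays left of the 3 wildtype arrays. Symbols mark array numbers, horizontal bars the means and error bars the SD. Groups do not overlap for Sag, and knockout array 1 is the lowest of the 6 arrays for Gnat1, Gngt1, Pde6a, Pde6b and Cnga1 as well as Sag.

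Transducin is described first. Gnat1, the rod transducin alpha subunit that carries the signal from pigment to phosphodiesterase, had scaled signals of 280.2, 634 and 629.6 in the knockout arrays and 459, 486 and 513 in the wildtype arrays. Knockout arrays 2 and 3 lay above all wildtype arrays and knockout array 1 below all of them, so the groups overlapped. The means were 515 ± 203 in knockout and 486 ± 26.7 in wildtype retinae (SD, n = 3 each), and the log2 fold change was -0.01 ± 0.28 (SE; adjusted p = 0.999 in limma), with a 95% interval from -0.64 to 0.63. Without knockout array 1 it was 0.37 ± 0.14 (SE), which did not pass either (adjusted p = 0.997 in limma). The coefficient of variation was 39.5% in knockout and 5.49% in wildtype arrays.

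Gngt1, the gamma subunit of rod transducin, had 4 probe sets, of which 3 were tested, and these included the 2 lowest estimates of the cascade. The probe set 1425167_a_at had scaled signals of 719.9, 1749.9 and 869 in the knockout arrays and 1451, 1738 and 1702 in the wildtype arrays. Knockout arrays 1 and 3 lay below every wildtype array, and knockout array 2 above every one. Its log2 fold change was -0.65 ± 0.28 (SE; unadjusted p = 0.046 and adjusted p = 0.999 in limma), a 1.47-fold lower mean signal in knockout. The brightest probe set, 1451633_a_at, had 1239, 2480.1 and 1605 in the knockout arrays and 1956, 2172 and 2393 in the wildtype arrays. It showed the same extremes, with knockout array 2 the highest of the 6 and knockout arrays 1 and 3 the lowest. The third, 1425219_x_at, had 568, 2445 and 1459 in the knockout arrays and 1649, 2076 and 2173 in the wildtype arrays, with the same extremes. The suffixes _x_at and _a_at mark probe sets that can hybridise with related transcripts or with several transcripts of a gene. The log2 fold changes of these 2 probe sets were -0.34 ± 0.22 and -0.61 ± 0.42 (SE; adjusted p = 0.999 for each in limma). Without knockout array 1 the 3 estimates were -0.39, -0.12 and -0.05, in the order the probe sets are given here. Without knockout array 2 they were -1.02, -0.61 and -1.08, with limma adjusted p of 0.31, 0.58 and 0.58. The remaining probe set, 1425168_at, lay below the filter at 15.0 to 18.7 in knockout and 10.5 to 29.2 in wildtype arrays.

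Gnb1, the beta subunit shared by transducin and many other G proteins, had 3 probe sets, of which 2 were tested. The brightest, 1454696_at, had 4011, 3325 and 3099 in the knockout arrays and 3867, 4008 and 3245 in the wildtype arrays. Here knockout array 1 was the highest of the 6, unlike for Gnat1 and Gngt1, and the groups overlapped. Its log2 fold change was -0.09 ± 0.13 (SE; adjusted p = 0.999 in limma), and it was -0.20 without knockout array 1 and -0.02 without knockout array 3. Leaving out wildtype array 1, 2 or 3 gave -0.06, -0.03 and -0.19. The second, 1417432_a_at, had 1498, 1556 and 1458 in the knockout arrays and 1622, 1728 and 2063 in the wildtype arrays. Here each knockout array was lower than each wildtype array, and the mean was 1.20-fold lower in knockout (log2 fold change -0.25 ± 0.13, SE; unadjusted p = 0.087 and adjusted p = 0.999 in limma). Without knockout array 1 this estimate was -0.25. The 2 probe sets thus placed the arrays in different orders. The third, 1425908_at, lay below the filter at 20.6 to 25.7 in knockout and 21.2 to 54.5 in wildtype arrays.

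**Figure D2:**
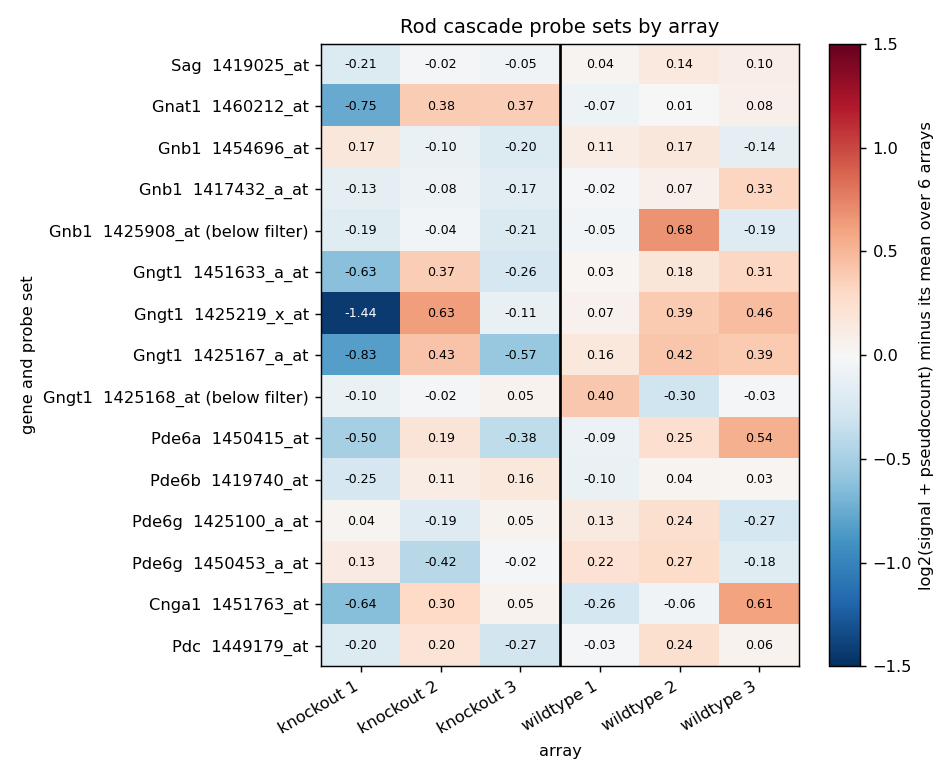
Each cell is log2(signal + pseudocount) of a member probe set on an array minus that probe set's mean over the 6 arrays, in log2 units, with knockout arrays left of the line and wildtype arrays right of it. The 3 tested Gngt1 probe sets are all lowest in knockout array 1 and highest in knockout array 2, and knockout array 1 is the lowest array for 8 of the 15 probe sets.

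The rod phosphodiesterase came next in the cascade. Pde6a, a catalytic subunit, was close to the filter and had scaled signals of 71.8, 128 and 79.8 in the knockout arrays and 102, 134 and 168 in the wildtype arrays. Knockout arrays 1 and 3 lay below all wildtype arrays, and knockout array 2 lay between them. The means were 93.1 ± 30.2 in knockout and 134 ± 32.9 in wildtype retinae (SD, n = 3 each), 1.44-fold lower in knockout, with a log2 fold change of -0.46 ± 0.25 (SE; adjusted p = 0.999 in limma). The 95% interval ran from -1.02 to 0.09, and the pseudocount understates a change at this signal. Without knockout array 1 the estimate was -0.33. The other catalytic subunit, Pde6b, had 3042, 3918 and 4042 in the knockout arrays and 3381, 3726 and 3704 in the wildtype arrays. The wildtype arrays lay within the range of the knockout arrays. Its log2 fold change was 0.02 ± 0.13 (SE; adjusted p = 0.999 in limma), the only estimate of the 13 above 0, with a 95% interval from -0.27 to 0.30, and it was 0.14 without knockout array 1. A difference between the 2 catalytic subunits in their response was not tested.

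Pde6g, the inhibitory subunit, had 2 probe sets, both tested. The brighter, 1425100_a_at, had 4366, 3732 and 4418 in the knockout arrays and 4676, 5024 and 3533 in the wildtype arrays. The groups overlapped, with both the lowest and the highest value in wildtype arrays, and the log2 fold change was -0.07 ± 0.14 (SE; adjusted p = 0.999 in limma), or -0.10 without knockout array 1. The other, 1450453_a_at, had 4079.9, 2792 and 3668 in the knockout arrays and 4334, 4517 and 3294 in the wildtype arrays, with a log2 fold change of -0.21 ± 0.17 (SE; adjusted p = 0.999 in limma). That estimate was -0.32 without knockout array 1 and -0.05 without knockout array 2. Leaving out wildtype array 2 or 3 instead gave -0.12 and -0.35. For both, wildtype arrays 1 and 2 were the highest, knockout array 2 and wildtype array 3 the lowest, and knockout arrays 1 and 3 lay between. That order differs from the one of Gngt1, where knockout array 2 was the highest.

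Cnga1, the alpha subunit of the rod channel that closes when cyclic GMP falls, had scaled signals of 625, 1213 and 1015 in the knockout arrays and 816, 944 and 1506 in the wildtype arrays. The groups overlapped widely, knockout array 1 being the lowest and wildtype array 3 the highest. The log2 fold change was -0.19 ± 0.28 (SE; adjusted p = 0.999 in limma), and it was 0.08 without knockout array 1 and 0.06 without wildtype array 3.

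Sag, the arrestin that ends pigment activity, had scaled signals of 6190.2, 7052 and 6909.8 in the knockout arrays and 7344, 7886 and 7643 in the wildtype arrays. Every knockout array was lower than every wildtype array. The means were 6717 ± 462 in knockout and 7625 ± 272 in wildtype retinae (SD, n = 3 each), 1.14-fold lower in knockout. Its log2 fold change was -0.18 ± 0.09 (SE; unadjusted p = 0.065 and adjusted p = 0.999 in limma), with a 95% interval from -0.38 to 0.01, and it was -0.13 without knockout array 1 and 0.13 with no rescaling. With quantile normalization the Sag estimate shrank to -0.02 ± 0.11 (SE), so its size depended on the normalization. Pdc, the phosphoprotein that binds the transducin beta-gamma pair, had 3226, 4261 and 3070.2 in the knockout arrays and 3636, 4383 and 3859 in the wildtype arrays. Knockout array 2 lay within the wildtype range and the other 2 knockout arrays below it. Its log2 fold change was -0.18 ± 0.14 (SE; adjusted p = 0.999 in limma), and without knockout arrays 1, 2 and 3 in turn it was -0.13, -0.33 and -0.09. Leaving out wildtype array 2 gave -0.10. Groups that did not overlap were thus found for 2 of the 13 tested member probe sets, of Sag and Gnb1, and both were lower in knockout. Over all tested probe sets the share was 9.09%, made up of 5.05% lower and 4.04% higher in knockout.

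**Figure D3:**
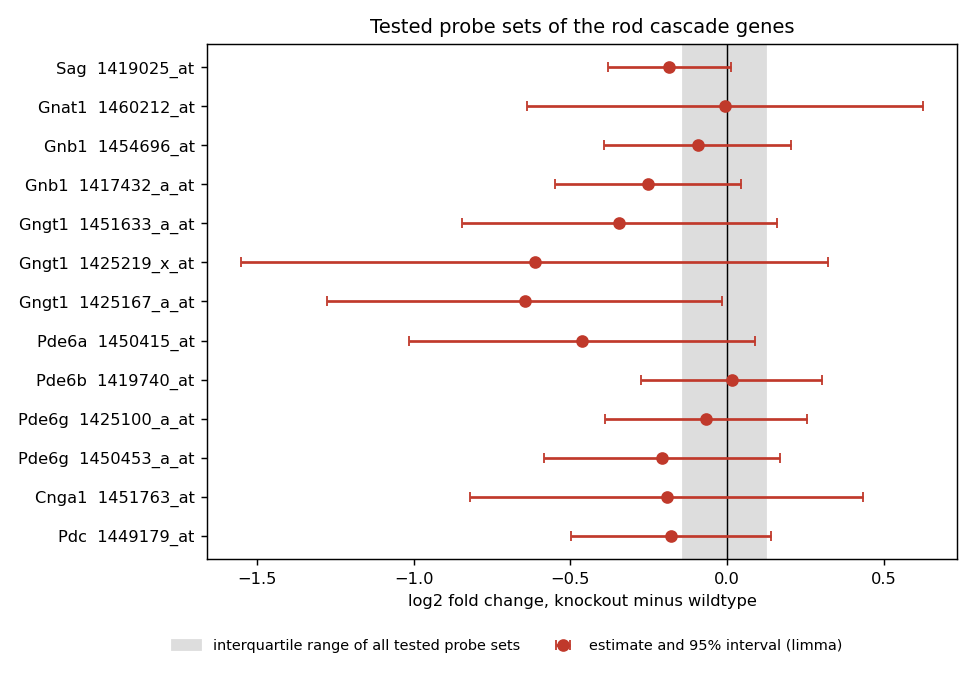
Log2 fold change, knockout minus wildtype, of the 13 tested member probe sets, with limma's 95% intervals as bars. The grey band is the interquartile range of all tested probe sets (-0.14 to 0.12). The estimates run from -0.65 (Gngt1) to 0.02 (Pde6b), and the interval excludes 0 for 1 Gngt1 probe set before adjustment.

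The members varied more among knockout than among wildtype arrays in most cases, as did most tested probe sets of the whole array. The coefficient of variation was larger in knockout for 10 of the 13 tested probe sets, and it was larger in knockout for 8184 of all 13647. The exceptions were Gnb1 1417432_a_at, Pde6g 1425100_a_at and Cnga1, at 3.27%, 9.15% and 31.5% in knockout against 12.8%, 17.7% and 33.7% in wildtype. Knockout array 1 was the lowest of the 6 arrays for 8 of the 13, and for 28.1% of all tested probe sets. The median centred log2 value over the 15 member probe sets was -0.21, 0.11 and -0.11 in knockout arrays 1 to 3 and 0.026, 0.18 and 0.078 in wildtype arrays 1 to 3, so knockout array 2 lay above wildtype arrays 1 and 3. Without knockout array 1, the members' median log2 fold change was -0.13 and 10 of the 13 estimates were below 0. The 3' to 5' signal ratio of the Actb control probe sets, a measure of RNA integrity and labelling, was 2.17, 1.69 and 1.90 in knockout and 1.64, 1.44 and 1.59 in wildtype arrays. That of Gapdh was 1.18, 0.884 and 1.16 in knockout and 0.982, 0.824 and 0.880 in wildtype arrays. The Actb ratio was higher in every knockout array than in every wildtype array, while the groups overlapped for Gapdh. For both controls, knockout arrays 1 and 3 were the highest, the arrays in which Gngt1 and Pde6a were lowest. The part of RNA integrity and labelling in the values above was not tested.

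**Figure D4:**
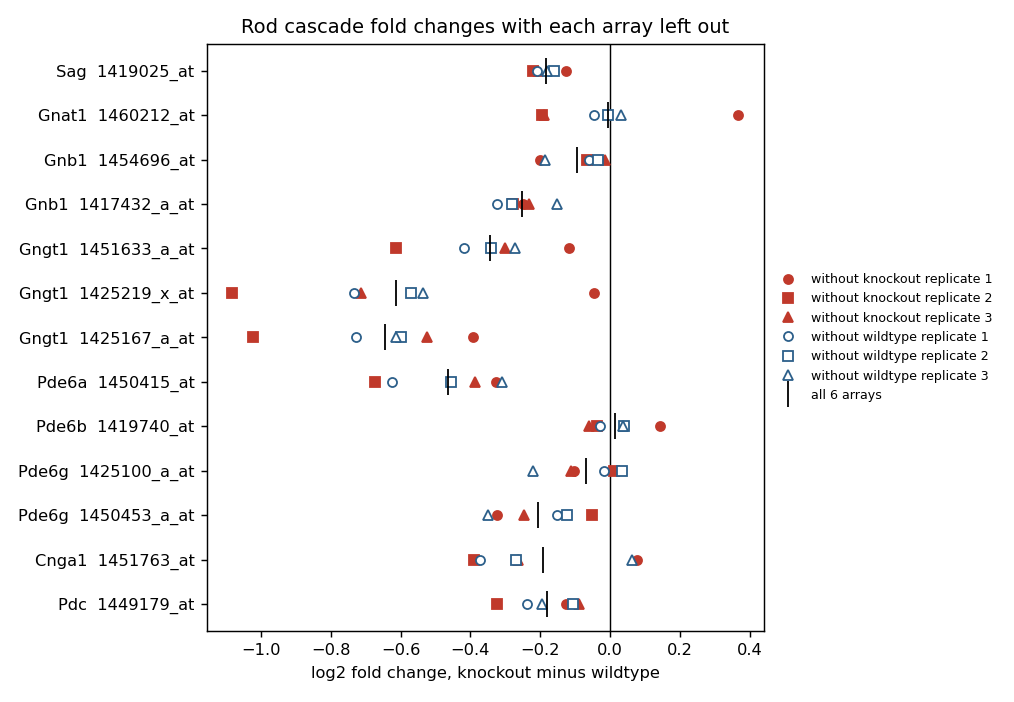
Log2 fold change, knockout minus wildtype, of each tested member probe set with 1 array left out in turn (red filled, a knockout array; blue open, a wildtype array) and with all 6 arrays (black bar). The estimates of Sag, Gnb1, Gngt1, Pde6a, Pdc and Pde6g 1450453_a_at stay below 0 throughout, while those of Gnat1 (-0.20 to 0.37), Cnga1 (-0.39 to 0.08), Pde6b and Pde6g 1425100_a_at lie on both sides of 0.

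Other genes of rod phototransduction gave no call either. Of 20 listed partners, recovery genes and rod regulators, 17 were on the array and 15 were tested, of which 0 passed in either direction, with 3 estimates above and 12 below 0 and a median log2 fold change of -0.04. The largest moderated statistics were those of the disc rim protein Rom1 (log2 fold change -0.34 ± 0.12), its partner Prph2 (-0.41 ± 0.21) and the guanylate cyclase activator Guca1b (0.78 ± 0.46, all SE; adjusted p = 0.999 for each in limma). Of the 15, 1 had groups that did not overlap, Rom1, which was lower in knockout (unadjusted p = 0.015 in limma). That share was 9.09% over all tested probe sets. Guca1b had 150.4, 152 and 102 in the knockout arrays and 18.1, 134 and 103 in the wildtype arrays, with wildtype array 1 far below the other 5. The channel's beta subunit Cngb1, the partner of Cnga1, had a log2 fold change of -0.04 ± 0.16 (SE; adjusted p = 0.999 in limma). The list of 20 contains all 6 tested rod markers given earlier, so those probe sets are counted in both places. Its genes Gnb5 and Pde6d are also among the more widely expressed relatives below.

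Of 8 cone counterparts of the members, 6 were on the array and tested, and 0 passed, with a median log2 fold change of -0.07 (range -0.14 to 0.01). Those with the largest statistics were the inhibitory subunit Pde6h (-0.12 ± 0.15), the channel subunit Cngb3 (-0.14 ± 0.18) and the beta subunit Gnb3 (-0.11 ± 0.20, all SE; adjusted p = 0.999 for each in limma). The cone transducin alpha subunit Gnat2 had 753, 696 and 802 in the knockout arrays and 729, 804 and 776 in the wildtype arrays, a log2 fold change of -0.04 ± 0.14 (SE; adjusted p = 0.999 in limma). Knockout array 1 was not the lowest array for Gnat2, unlike for Gnat1, but it was the lowest for Cngb3. Over the 6 tested cone counterparts the mean centred log2 value was -0.05, -0.06 and 0.02 in knockout and -0.07, 0.04 and 0.12 in wildtype arrays. Over 7 tested cone markers, which include the cone opsins, it was lowest in knockout array 1 (-0.17). Over the 6 tested rod markers it was 0.01 in that array. Of 13 relatives expressed more widely, all were tested and 0 passed, with a median of -0.03. The largest statistics there were those of the G protein alpha subunits Gnaq (-0.52 ± 0.21) and Gnai2 (0.25 ± 0.14) and the beta subunit Gnb4 (-0.22 ± 0.16, all SE; adjusted p = 0.999 for each in limma). These 3 were the only ones of the 13 with groups that did not overlap. Gnaq and Gnb4 were lower in knockout and Gnai2 was higher. Such groups were found for 0 of the 6 tested cone counterparts, and for 9.09% of all tested probe sets.

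The mean centred log2 pattern of the 9 leading member probe sets over the arrays was -0.33, 0.14 and -0.06 in knockout and -0.03, 0.13 and 0.15 in wildtype arrays. Among 12592 tested probe sets with a single gene name outside the members, those nearest to it were of Zfp605, Gnpnat1 and Cnot6l, with root mean square differences of 0.035, 0.038 and 0.039 log2 units over the 6 arrays, against a median of 0.27 over all candidates. All 3 were lowest in knockout array 1, the array that stood apart, as was the pattern by which they were picked, so this adds nothing to it.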

How the data were processed

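The deposited values were linear MAS5 intensity values, 1 per probe set and array, per the submitters' processing notes. The version, scaling target and detection calls are not given in the sources used here. Arrays carry no read depth, and the number of arrays limits precision. Groups came from the labels. The 64 control probe sets were left out of the 22690, and arrays were scaled to equal means, taken without the top and bottom 2% of signals. Before log2, 19.1 (percentile 20 of the scaled signals) was added as a pseudocount, which understates changes of dim probe sets. Probe sets with a mean above the 40th percentile of all signals were fitted with the lmFit and eBayes functions of limma 3.58.1 in R 4.3.3, using an intensity trend and Benjamini-Hochberg adjustment over all 13647. Symbols came from the platform annotation, updated through Entrez identifiers (20351 matched). A single symbol was found for 20380 probe sets, several for 691 and none for 1555.

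The fit was tested on simulated arrays with known changes. Members and lists were chosen with earlier results of these data known. All members with all their probe sets are named, and from each list the 3 genes with the largest moderated statistic, plus Gnat2, Cngb1, Nrl, Grk1 and Rcvrn, which were added as counterparts, partner and markers after their values were seen. The 3 most similar patterns were taken by root mean square difference. Alternatives changed the scaling, the pseudocount, the filter or the variance model, weighted the arrays, blocked on replicate number, or left out each array. The targeted gene is not reported here, and the labels were not checked against its signal.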

Additional observations from a re-analysis of the deposited data

How the results depend on the processing

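Over 16 alternatives, all planned, the 13 tested member probe sets gave 207 estimates, of which 0 passed an adjusted p of 0.05, and 23 changed sign. The estimates of Gngt1 and Pde6a kept theirs. Changing the filter or the intensity trend, or blocking on replicate number, cannot move an estimate, only its SE and p-values. The 207 thus include estimates that could not change sign. With no rescaling, where the median of all tested probe sets was 0.29, Cnga1 (0.12), Gnat1 (0.30), Gnb1 (0.061 and 0.22), Pdc (0.14), Pde6g (0.25 and 0.11) and Sag (0.13) were above 0, and the members' median was 0.12. With median scaling, Gnat1 was 0.084, Gnb1 1454696_at 0.00016 and Pde6g 1425100_a_at 0.026. Gnat1 was 0.0017 with the high pseudocount, and with array weights Gnat1 was 0.26 and Cnga1 0.10. With 1 array left out, Gnat1 ranged from -0.20 to 0.37 (0.032 without wildtype array 3), Cnga1 from -0.39 to 0.077 (0.062 without wildtype array 3), Pde6b from -0.060 to 0.14 (-0.038 without knockout array 2 and -0.030 without wildtype array 1) and Pde6g 1425100_a_at from -0.22 to 0.033 (0.0097 without knockout array 2). The members' median ranged from -0.28 to -0.13 (-0.13 without knockout array 1).

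The count over the whole array, 2, was 10 with no rescaling and 1 without a filter, and ranged from 0 (without wildtype array 3) to 4 (without wildtype array 2), with 1 without knockout array 2 or 3. The cause of these shifts was not tested, and only the fits with an array left out had fewer arrays. Under the replicate block, 2 probe sets passed over the array and 0 members. The members' median stayed at -0.19, which a block balanced over the groups cannot change. The lowest adjusted p of a member in limma was 0.71 under the block, against 0.999 in the main fit. Deviations from the group means correlated between same-numbered arrays at 0.18 (number 1), -0.029 (number 2) and 0.084 (number 3). For differently numbered arrays the range was -0.29 to 0.26. With 3 arrays per group these correlations cannot decide whether the numbers mark pairs. The labels do not say, and the main fit used no pairing. The stricter filter left 12 of the 13, without Pde6a. Signal close to the filter limits Pde6a.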
